A study of Homo sapiens with 6 samples.

Results

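The RNA interference and microRNA machinery was followed here through 10 genes, measured on arrays of U2OS cells, a human osteosarcoma line, after knockdown of H3.Y alone or together with H3.X, histone H3 variants found in primates. The members were fixed by name, with older aliases allowed, as the probe sets that carried exactly 1 gene symbol. All 10 genes were found, each on 1 probe set, out of 19460 probe sets with 1 gene symbol that stood for 18417 genes. The genes were DROSHA, DGCR8, XPO5, DICER1, TARBP2, PRKRA, AGO1, AGO2, AGO3 and AGO4.

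The 6 arrays made 3 groups of 2 arrays. The control group received siRNA against luciferase, a gene that the cells do not carry, the second received siRNA for H3.Y, and the third was treated for H3.X as well as H3.Y (here the combined knockdown). Every group was grown in DMEM with serum, transfected 2 times with Oligofectamine and harvested on day 4, and the replicates are labelled biological without a description of the cultures, so a p-value here covers no more than the scatter among these 6 arrays. All 3 groups therefore carried siRNA, and untransfected cells were not analysed here. Whether the combined group received a mixture of siRNAs or a single siRNA is not stated in the labels. The knockdown itself could not be read, because H3Y1 and H3Y2, the genes of H3.Y and H3.X, had 0 named probe sets.

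MicroRNAs are cut out of long primary transcripts in the nucleus by the Microprocessor, which joins the nuclease DROSHA to the RNA-binding protein DGCR8. Exportin 5, the product of XPO5, carries the hairpin precursors to the cytoplasm, where DICER1 trims them to duplexes with the partner proteins TRBP (TARBP2) and PACT (PRKRA). An Argonaute protein keeps 1 strand of the duplex as a guide. AGO2 is the Argonaute known for slicing fully paired targets, and a transfected siRNA enters the pathway at Argonaute loading without need of the nuclear steps.

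Mature microRNAs named in the results below are shown with the seed, bases 2 to 8 from the 5′ end, in capitals. The sequences are those of RefSeq on GRCh38.p14. They are printed because a seed sets which messages an Argonaute finds, and because the MIR21 and MIR221 probe sets and the host transcript of miR-15a and miR-16 passed the test below.
hsa-miR-21-5p: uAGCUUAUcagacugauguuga
hsa-miR-221-3p: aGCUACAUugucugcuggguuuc
hsa-miR-222-3p: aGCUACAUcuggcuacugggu
hsa-miR-15a-5p: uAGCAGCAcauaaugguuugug
hsa-miR-16-5p: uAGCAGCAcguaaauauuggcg
hsa-let-7a-5p: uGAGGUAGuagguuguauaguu
The sequence of miR-21-5p lies at chr17:59841273-59841294 on the plus strand and that of let-7a-5p, from its MIRLET7A1 copy, at chr9:94175962-94175983 on the plus strand. On the minus strand lie miR-221-3p at chrX:45746180-45746202 and miR-222-3p at chrX:45747036-45747056, which share the seed GCUACAU. Also on the minus strand, miR-15a-5p at chr13:50049167-50049188 and miR-16-5p at chr13:50049027-50049048 share the seed AGCAGCA.

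Values are log2 expression values as deposited, so a difference of 1 is a factor of 2 in signal. The 33297 probe sets of an array had medians of 5.10 to 5.14 log2 units. Arrays of a group correlated at r of 0.986 to 0.992 over all probe sets, and arrays of different groups at 0.978 to 0.987. Probe sets differ in how brightly they read their transcript, so groups were compared gene by gene, and a level shows only roughly how a transcript stands to others. Calls were made where limma's p was under 0.05 after Benjamini-Hochberg adjustment across the 33297 probe sets of a comparison. The 3 mesenchymal markers read 8.17 to 10.95 log2 units, the 4 measured blood markers 1.89 to 3.90 and the 3 endothelial markers 3.35 to 3.95. The 5 epithelial markers spanned 4.16 to 11.58, with KRT8 at 10.14 to 11.58. The 8 measured osteoblast markers spanned 3.05 to 11.55, from IBSP at 3.05 to 3.36 to SPARC at 9.94 to 11.55, with COL1A1 at 8.33 to 10.73.

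PRKRA was the member that changed. Its level was 9.30 and 9.24 log2 units on the luciferase arrays, 9.40 and 9.13 after H3.Y siRNA, and 8.23 and 8.46 in the combined knockdown. Both combined arrays lay below all other arrays, while the H3.Y arrays enclosed the luciferase arrays. PRKRA encodes PACT, a double-stranded RNA-binding partner of Dicer that is also an activator of the kinase PKR. It fell by 0.93 ± 0.16 (SE, n = 2 arrays per group) on the log2 scale in the combined knockdown against luciferase, a level 1.90-fold lower (adjusted p = 0.048, limma), where 1.84% of all probe sets were called. Against H3.Y siRNA it fell by 0.92 ± 0.16, a level 1.89-fold lower (adjusted p = 0.032). After H3.Y siRNA alone the difference from luciferase was log2 -0.01 ± 0.16, with a 95% confidence interval from -0.39 to 0.37. The comparison between both knockdowns is the test of that contrast.

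The PRKRA call lay close to the threshold. When each of the 4 compared arrays was left out in turn, the difference from luciferase ran from -1.04 to -0.81 and was not called (adjusted p 0.16 to 0.34), and the adjusted p was 0.056 with each array centred on its median and 0.058 with the replicate number as a block. The difference from H3.Y siRNA ran from -1.05 to -0.78, and it was called in 1 of the 6 fits that left out an array, that without H3.Y replicate 2, and not in the fit of only the 4 arrays compared (adjusted p = 0.076). RefSeq lists a PRKRA pseudogene, PRKRAP1, and a noncoding gene, CHROMR, that overlaps PRKRA, and how far either adds to the signal was not tested.

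**Figure D1:**
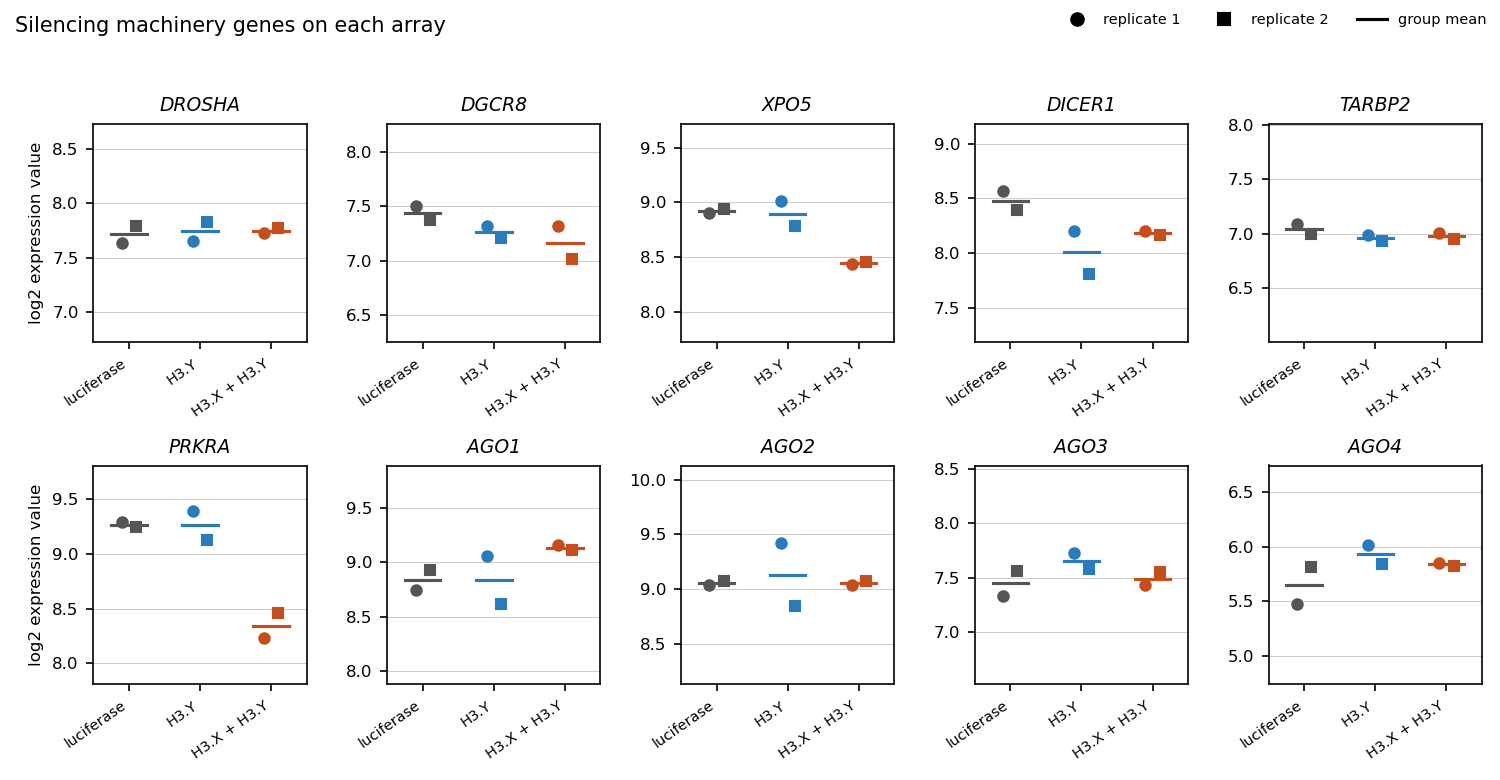
Log2 expression value (vertical axis, the same span of 2 log2 units in every panel) of the 10 genes on the 6 arrays, by siRNA group (horizontal axis). Circles are replicate 1, squares replicate 2 and bars the group mean. PRKRA and XPO5 are the panels in which both combined knockdown arrays lie clearly below the other 4, at 8.23 and 8.46 for PRKRA and at 8.43 and 8.46 for XPO5.

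XPO5, which exports precursor microRNAs, had the next largest difference in the combined knockdown. It stood at 8.90 and 8.94 log2 units in luciferase cells, 9.01 and 8.78 after H3.Y siRNA, and 8.43 and 8.46 in the combined knockdown. The combined arrays were the lowest on this probe set and lay within 0.03 of each other. The differences of log2 -0.48 ± 0.14 from luciferase (95% interval -0.81 to -0.14) and -0.45 ± 0.14 from H3.Y siRNA (-0.78 to -0.12) had unadjusted p of 0.012 and 0.016. Neither passed over all probe sets (adjusted p = 0.17 and 0.14, limma). After H3.Y siRNA alone the XPO5 difference from luciferase was -0.03 ± 0.14. RefSeq places POLR1C, a subunit of RNA polymerases I and III, in overlap with XPO5, and its own probe set differed by -0.18 ± 0.14 from luciferase in the combined knockdown.

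DICER1 was the member farthest from luciferase after H3.Y siRNA. Its values were 8.56 and 8.40 log2 units in luciferase cells, 8.20 and 7.81 after H3.Y siRNA, and 8.20 and 8.16 in the combined knockdown. All 4 knockdown arrays thus lay below both luciferase arrays, and the H3.Y arrays enclosed those of the combined knockdown. DICER1 is the ribonuclease that turns hairpin precursors and long double-stranded RNA into small duplexes. The difference was log2 -0.48 ± 0.17 after H3.Y siRNA (95% interval -0.89 to -0.06, unadjusted p = 0.030) and -0.30 ± 0.17 in the combined knockdown (-0.71 to 0.11). The adjusted p were 0.29 and 0.51, so neither was called. Between the knockdowns the difference was 0.18 ± 0.17. DICER1-AS1, the antisense transcript that overlaps DICER1, read 3.45 to 4.00 on its own probe set.

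The other Dicer partner, TARBP2, was the steadiest member. It lay between 6.93 and 7.09 log2 units on all 6 arrays, and its 3 differences were log2 -0.08, -0.07 and 0.02, each with an SE of 0.13. Its SD within groups was 0.05, against a median of 0.16 over all probe sets and of 0.14 over the members. MAP3K12, a kinase gene that RefSeq places in overlap with TARBP2, read 6.08 to 6.97 on its own probe set.

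The Microprocessor genes did not pass either. DROSHA read 7.63 and 7.80 log2 units in luciferase cells, 7.65 and 7.83 after H3.Y siRNA and 7.72 and 7.78 in the combined knockdown. The 3 groups overlapped, with differences of log2 0.03, 0.04 and 0.01, each with an SE of 0.14. The 95% interval of the combined difference from luciferase ran from -0.30 to 0.37. DGCR8 read 7.50 and 7.38, then 7.32 and 7.21, then 7.32 and 7.01 in the same order. Both knockdown groups lay below luciferase and overlapped each other, with differences from luciferase of -0.18 ± 0.16 after H3.Y siRNA and -0.28 ± 0.16 in the combined knockdown (adjusted p = 0.69 and 0.50). The DGCR8 message carries hairpins that the Microprocessor is known to cut, and RefSeq places MIR3618 and MIR1306 within the gene.

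The Argonautes, which hold the guide strand, showed no called change. AGO2 read 9.03 and 9.07 log2 units in luciferase cells and 9.03 and 9.07 again in the combined knockdown. After H3.Y siRNA its values were 9.42 and 8.84, on either side of both other groups. The combined difference from luciferase was log2 0.00 ± 0.20, with a 95% interval from -0.49 to 0.49.

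AGO1 was 8.75 and 8.93 in luciferase cells, 9.06 and 8.62 after H3.Y siRNA, and 9.16 and 9.11 in the combined knockdown. The combined arrays were the highest on that probe set, at log2 0.29 ± 0.18 above luciferase and 0.29 ± 0.18 above H3.Y siRNA (adjusted p = 0.55 and 0.47). AGO3 read 7.33 and 7.56, 7.72 and 7.58, and 7.44 and 7.55 in the same order of groups. AGO4 read 5.47 and 5.82, 6.02 and 5.85, and 5.85 and 5.83. For AGO4 all 4 knockdown arrays lay above both luciferase arrays, by log2 0.28 ± 0.16 after H3.Y siRNA and 0.19 ± 0.16 in the combined knockdown. AGO4, AGO1 and AGO3 are neighbours on chromosome 1, yet AGO3 differed from luciferase by 0.20 ± 0.15 and 0.04 ± 0.15 and AGO1 by -0.00 ± 0.18 and 0.29 ± 0.18 after H3.Y siRNA and in the combined knockdown. The 12 Argonaute differences ran from -0.16 to 0.29, at adjusted p between 0.47 and 1.00.

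**Figure D2:**
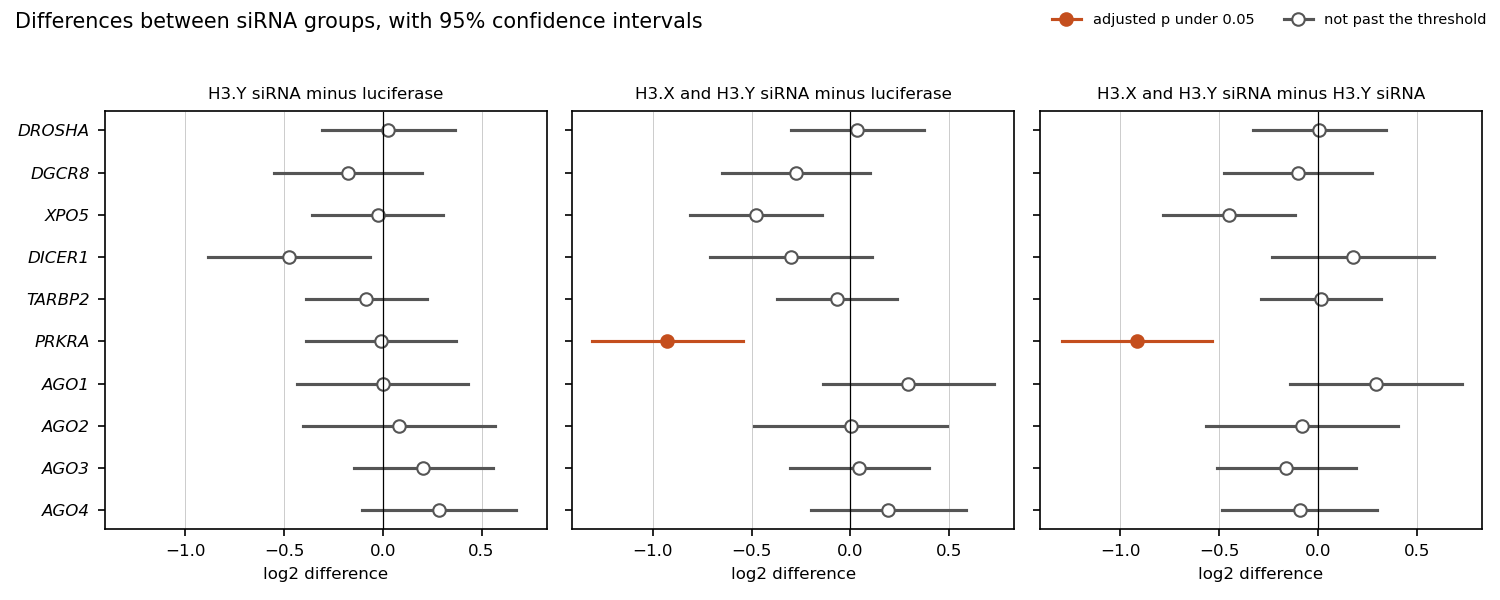
Log2 difference (horizontal axis) of each of the 10 genes in the 3 comparisons, with the 95% confidence interval of the moderated limma fit as a line. Filled points passed an adjusted p of 0.05, which PRKRA alone did, at -0.93 against luciferase and -0.92 against H3.Y siRNA.

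Read against all probe sets, 0 of 10 members were called after H3.Y siRNA, where 0.279% of the 33297 probe sets were called by limma (0.195% lower), and 1 of 10 members had an unadjusted p under 0.05, where 13.9% of all probe sets did. In the combined knockdown 1 of 10, PRKRA, was called beside 1.84% of all probe sets (0.985% lower), and 2 of 10 had an unadjusted p under 0.05 beside 15.3%. Between the knockdowns 1 of 10, again PRKRA, was called beside 4.67% (1.92% lower), and 2 of 10 beside 19% had an unadjusted p under 0.05. Groups did not overlap for 5, 6 and 4 of the 10 members in these comparisons, beside 41.7%, 47.4% and 46.6% of all probe sets. Of the 19460 probe sets with 1 gene symbol 17%, 19.1% and 24.4% had an unadjusted p under 0.05, and 75, 519 and 1297 were called. The shares at the unadjusted threshold and of groups apart thus lay near the background. The members' median difference was log2 -0.01, -0.03 and -0.09, and that of all probe sets 0.02, 0.00 and -0.03. No member differed by 1 log2 unit or more in any of the comparisons, and the standard errors of the members ran from 0.13 to 0.20. Both comparisons with luciferase share the same control arrays.

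The H3.Y arrays differed most from each other. Of the 10 members 9 were higher on H3.Y replicate 1 than on replicate 2, DROSHA being the exception, against 4 for luciferase and 5 for the combined knockdown. The median gap between both arrays was 0.20 log2 units over the members for H3.Y, 0.14 for luciferase and 0.05 for the combined knockdown. Over all probe sets these gaps were 0.22, 0.17 and 0.14, and 48.1% of probe sets were higher on H3.Y replicate 1.

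Among the markers of other cell types 1 of 5 epithelial, 0 of 4 blood and 0 of 3 endothelial markers were called by limma in the combined knockdown against luciferase. Of all probe sets 1.84% were called there. An unadjusted p under 0.05 was found for 0 of the blood and endothelial markers, beside 15.3% of all probe sets. The alternative fits were not read for the markers. The epithelial adhesion gene EPCAM rose by log2 2.25 ± 0.18 against luciferase (adjusted p = 0.013), and the mean of the 5 lay at 6.91 to 7.08 log2 units on the combined arrays against 6.06 to 6.24 for luciferase and 5.81 to 5.95 for H3.Y siRNA. CDH1, the defining adhesion molecule of epithelia, read 4.88 and 4.86 on the combined arrays and lower on each of the other 4, a difference of 0.59 ± 0.14 from luciferase that was not called (adjusted p = 0.10). Against H3.Y siRNA EPCAM was higher by 2.46 ± 0.18 and the tight junction gene CLDN4 by 1.51 ± 0.17 (adjusted p = 0.0051 and 0.012, limma). In that comparison 4.67% of all probe sets were called. The osteoblast markers COL1A1 and SPARC were also higher there, by 2.10 ± 0.17 and 1.31 ± 0.18 (adjusted p = 0.0058 and 0.019, limma). SPP1 of the same list went the other way, at -1.65 ± 0.53 (adjusted p = 0.15, limma). ALPL at -0.21 ± 0.26 and SP7 at -0.07 ± 0.13 were also lower, while RUNX2, COL1A2 and IBSP were higher, all uncalled. The mesenchymal marker CDH2 was higher by 1.08 ± 0.18 (adjusted p = 0.028, limma). The other mesenchymal markers, VIM and THY1, gave -0.12 ± 0.14 and -0.32 ± 0.26 and were not called. The epithelial marker KRT19 differed by -0.004 ± 0.23, and 0 markers of any list were called lower. After H3.Y siRNA against luciferase 0 markers of any list were called. CLDN4 gave -0.81 ± 0.17 there and 0.70 ± 0.17 in the combined knockdown against luciferase (adjusted p = 0.12 and 0.11, limma). COL1A1 gave -0.52 ± 0.17 and SPP1 1.74 ± 0.53 after H3.Y siRNA (adjusted p = 0.26 and 0.23, limma). Of the line's own osteoblast list 1 of 8, COL1A1, was called in the combined knockdown against luciferase, higher by 1.58 ± 0.17, beside 1.84% of all probe sets. SPARC gave 1.02 ± 0.18 (adjusted p = 0.054), RUNX2 0.48 ± 0.19 and COL1A2 0.39 ± 0.15 (unadjusted p = 0.043 and 0.040, limma). In the combined knockdown no marker of that list had a lower mean than in luciferase cells. The part of these in the PRKRA result was not tested. Nor can these bulk measurements tell fewer cells with a transcript from less of it per cell.

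The genes whose profile over the 6 arrays was most like that of PRKRA were VCF1, ATP5MK and PHTF2. Pearson's r with PRKRA was 0.9995, 0.997 and 0.994 over 6 arrays, among 4423 probe sets of named genes whose SD over the arrays was at least 0.3. Since the arrays fall into 3 groups, any gene that is lower in the combined knockdown gains a high r, and 4.7% of those probe sets had an r above 0.95. VCF1 fell by 1.02 ± 0.17 on the log2 scale against luciferase and PHTF2 by 1.75 ± 0.26 (adjusted p = 0.043 and 0.032). ATP5MK, a small subunit of the mitochondrial ATP synthase, differed by -0.62 ± 0.15 and was not called.

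Around the 10 genes, 9 lists held 107 further genes of the pathway, of which 95 were measured, each by its brightest probe set. Of the 95 genes 1 was called after H3.Y siRNA, 1 in the combined knockdown and 6 in the contrast of both knockdowns. In the same order 75, 519 and 1297 of the 19460 probe sets with 1 gene symbol were called. The shares called of all probe sets, many of them unnamed, are given above. Genes with an unadjusted p under 0.05 numbered 18, 31 and 34 of the 95, or 18.9%, 32.6% and 35.8%, beside 17%, 19.1% and 24.4% of the 19460 probe sets with 1 gene symbol and 13.9%, 15.3% and 19% of all probe sets. The median difference over the 95 was log2 -0.10, -0.12 and -0.06.

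Among the cofactors of the Microprocessor NCBP1, the large subunit of the nuclear cap-binding complex, read 8.64 and 8.76 log2 units in luciferase cells, 8.07 and 8.30 after H3.Y siRNA and 7.82 and 7.83 in the combined knockdown. The 3 groups did not overlap, with luciferase highest. NCBP1 fell by 0.87 ± 0.14 on the log2 scale in the combined knockdown (adjusted p = 0.042), and gave -0.51 ± 0.14 after H3.Y siRNA (adjusted p = 0.19). The call was lost without any of the 4 compared arrays (adjusted p 0.18 to 0.30) and after a further quantile normalization (0.056). In the combined knockdown 9 of the 10 measured cofactors were lower and 1, the helicase DDX17 at 0.43 ± 0.14, was higher. Of all probe sets 49.8% were lower there. The list's median was -0.35 and NCBP1 was the 1 called. After H3.Y siRNA ERH, a DGCR8-binding protein, gave -0.72 ± 0.21 in a list with a median of -0.21.

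The list of export and Argonaute loading held RAN and the chaperones that open Argonaute for a duplex, among others. In the combined knockdown 10 of 10 measured genes of the list were lower, beside 49.8% of all probe sets. Their median was log2 -0.43. An unadjusted p under 0.05 was found for 6 of them, while 0 were called. Such a p was found for 15.3% of all probe sets and 19.1% of those with 1 gene symbol. HSP90AA1 gave -0.62 ± 0.15 and its co-chaperone STIP1 -0.48 ± 0.14 (adjusted p = 0.11 and 0.17). After H3.Y siRNA 7 of 10 were lower, beside 46.6% of all probe sets, with a median of -0.11. TSN, a subunit of the nuclease that clears the passenger strand, gave -0.65 ± 0.18 there.

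Among partners that bind double-stranded RNA ADAR was called between the knockdowns. ADAR, which edits adenosine to inosine in double-stranded RNA, read 8.39 and 8.42 in luciferase cells, 8.28 and 8.10 after H3.Y siRNA and 8.99 and 9.04 in the combined knockdown. It was higher in the combined knockdown than after H3.Y siRNA by log2 0.83 ± 0.13 (adjusted p = 0.027), with 0.61 ± 0.13 against luciferase not called (adjusted p = 0.088). EIF2AK2, which encodes PKR, the kinase that PACT can activate, differed by -1.31 ± 0.25 after H3.Y siRNA and by 0.98 ± 0.25 between the knockdowns, and neither passed (adjusted p = 0.11 and 0.093). The RNA helicase DHX9 gave -0.58 ± 0.14 in the combined knockdown. In this list of 11 measured genes 8 were lower after H3.Y siRNA and 8 in the combined knockdown, at medians of -0.07 and -0.28. Of all probe sets 46.6% and 49.8% were lower in these comparisons.

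The GW182 proteins TNRC6A, TNRC6B and TNRC6C bridge Argonaute to the deadenylases, and they were listed with other repressors such as the helicases MOV10 and DDX6. None of these 10 genes passed in limma. In the 3 comparisons 2, 4 and 5 had an unadjusted p under 0.05, beside 13.9%, 15.3% and 19% of all probe sets. Of those with 1 gene symbol the shares were 17%, 19.1% and 24.4%. The list's median was log2 -0.09 after H3.Y siRNA, 0.23 in the combined knockdown and 0.26 between them. MOV10 gave -0.75 ± 0.24 after H3.Y siRNA and 0.96 ± 0.24 between the knockdowns (adjusted p = 0.24 and 0.081). DDX6 gave -0.54 ± 0.14 in the combined knockdown.

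Of 21 genes for deadenylation, decapping and decay PATL1, a scaffold of the decapping complex, was the called one. Its values were 8.83 and 8.86 in luciferase cells, 7.45 and 7.85 after H3.Y siRNA, and 8.67 and 8.68 in the combined knockdown. Both H3.Y arrays were thus the lowest. PATL1 was higher by log2 1.03 ± 0.17 in the combined knockdown than after H3.Y siRNA (adjusted p = 0.027), while its -1.20 ± 0.17 against luciferase after H3.Y siRNA was not called (adjusted p = 0.063). PAN2, the catalytic subunit of a deadenylase, gave -0.82 ± 0.18 after H3.Y siRNA and -0.97 ± 0.18 in the combined knockdown (adjusted p = 0.13 and 0.058). The list's medians were -0.20, -0.05 and 0.12.

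Of 12 listed factors that tail, trim and turn over precursors and microRNAs 3 were called between the knockdowns. In that comparison 4.67% of all probe sets were called, and 1297 of the 19460 with 1 gene symbol. TUT7, a terminal uridylyltransferase that tails precursors of let-7, read 7.12 and 7.26 in luciferase cells, 8.12 and 7.64 after H3.Y siRNA and 6.85 and 6.89 in the combined knockdown. The H3.Y arrays were the highest and the combined arrays the lowest, and TUT7 was lower by log2 -1.01 ± 0.19 in the latter (adjusted p = 0.037). ZSWIM8, an adaptor of the ubiquitin ligase that acts in target-directed microRNA decay, read 5.55 and 5.39, 6.45 and 6.33, and 5.71 and 5.46 in the same order. It was lower by -0.80 ± 0.15 (adjusted p = 0.041) on its brighter probe set, and its second probe set gave -0.41 ± 0.26, which was not called. TENT2, which adds adenosine to microRNA ends, was higher by 0.74 ± 0.14 (adjusted p = 0.042), at 7.30 and 7.21 in the combined knockdown against 6.62 and 6.42. LIN28B, which blocks let-7 maturation, gave -1.03 ± 0.18 in the combined knockdown against luciferase and missed the threshold at an adjusted p of 0.051.

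The calls of ADAR, PATL1, TUT7, ZSWIM8 and TENT2 between the knockdowns were lost in a fit of only the 4 arrays compared (adjusted p 0.070 to 0.086). With 1 array left out at a time, ADAR, ZSWIM8 and TENT2 lost the call in all 6 fits, and PATL1 and TUT7 in the 5 fits other than that without H3.Y replicate 2.

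**Figure D3:**
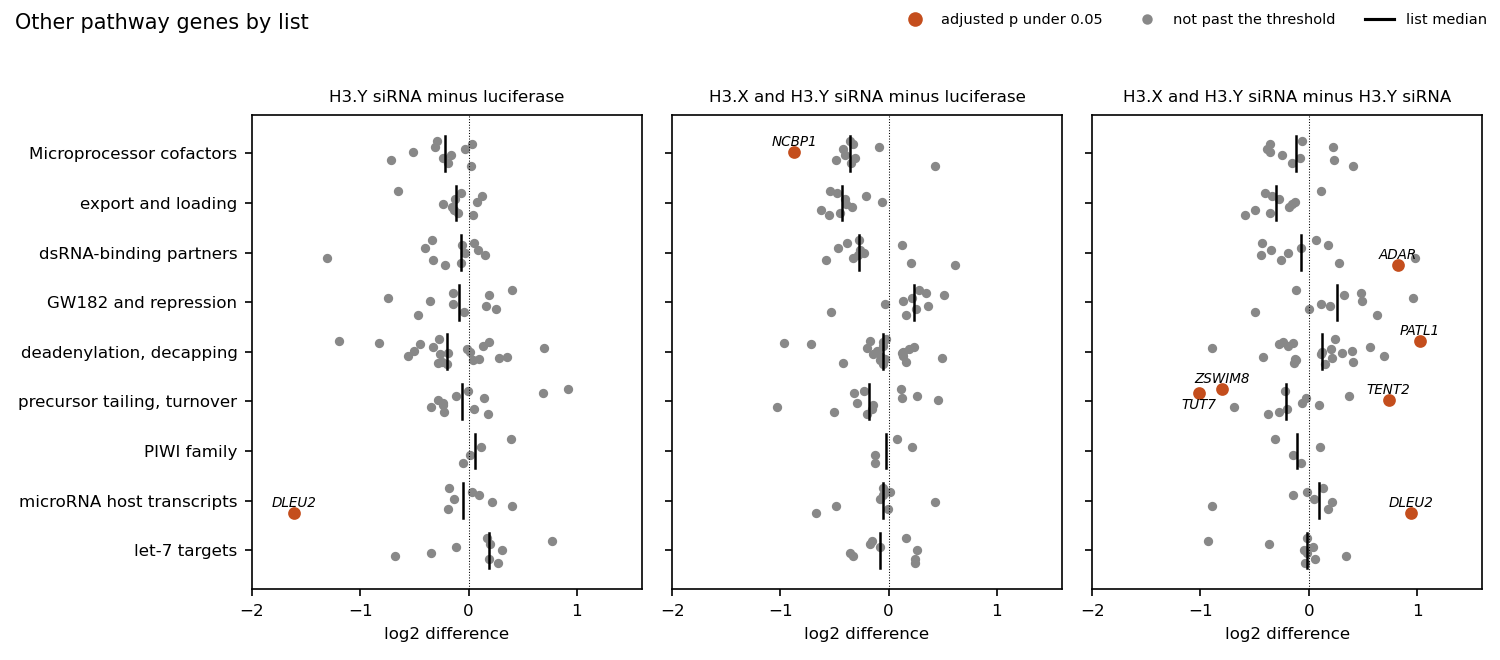
Log2 difference (horizontal axis) of the 95 measured pathway genes in 9 lists (vertical axis) for the 3 comparisons. Filled large points are genes past an adjusted p of 0.05 and vertical bars are list medians. All 10 export and loading genes lie left of 0 in the combined knockdown against luciferase, at a median of -0.43. Of all probe sets 49.8% were lower in that comparison.

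Transcripts that host microRNAs were measured for 8 of 14 listed genes, and DLEU2, the host of miR-15a and miR-16, was the called one. It read 5.72 and 5.97 log2 units in luciferase cells, 4.41 and 4.06 after H3.Y siRNA and 5.16 and 5.19 in the combined knockdown. The groups were apart, with luciferase highest and H3.Y lowest. DLEU2 fell by 1.61 ± 0.17 on the log2 scale after H3.Y siRNA, a level 3.05-fold lower (adjusted p = 0.038). In the combined knockdown it gave -0.67 ± 0.17 against luciferase (adjusted p = 0.13), and it was higher by 0.94 ± 0.17 there than after H3.Y siRNA (adjusted p = 0.036). The first call held without H3.Y replicate 2 and was lost without any other array (adjusted p 0.10 to 0.31), and the second was lost without each of the 6 arrays (0.056 to 0.21). Both were lost in fits of only the 4 arrays compared (0.12 and 0.072), and the first also with the replicate number as a block (0.051). The hairpin loci MIR15A and MIR16-1, whose mature forms share the seed shown above, read 2.56 to 2.76 and 2.48 to 2.69 on their own probe sets. Both lay below 3.33, the lower quartile of the means of all probe sets.

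The array also carried 173 probe sets for microRNA genes as such. They read RNA of the locus and not the mature microRNA, and 28 of them had a mean above 5 log2 units. In limma 0 were called after H3.Y siRNA, 2 rose in the combined knockdown and 1 was higher there than after H3.Y siRNA. Of all probe sets 0.0841%, 0.859% and 2.74% were called higher. After H3.Y siRNA 5 of the 173, or 2.89%, had an unadjusted p under 0.05, beside 13.9% of all probe sets. MIR21 read 5.91 and 6.15 in luciferase cells, 6.34 and 6.40 after H3.Y siRNA and 7.78 and 8.01 in the combined knockdown. The combined arrays stood far above the rest. MIR21 rose by log2 1.87 ± 0.15 against luciferase, or 3.65-fold (adjusted p = 0.013), and by 1.53 ± 0.15 against H3.Y siRNA (adjusted p = 0.0086). RefSeq places MIR21 within VMP1, a gene of autophagosome formation. VMP1 read 10.99 to 11.31 on all arrays and differed by 0.23 ± 0.13 from luciferase in the combined knockdown, which was not called.

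MIR221 read 4.96 and 4.96 log2 units in luciferase cells, 5.35 and 5.88 after H3.Y siRNA, and 6.40 and 6.98 in the combined knockdown. The 3 groups were apart. It rose by log2 1.73 ± 0.25 in the combined knockdown, or 3.31-fold (adjusted p = 0.032), and gave 0.65 ± 0.25 after H3.Y siRNA (adjusted p = 0.32). MIR222, whose mature form shares the seed of miR-221 and which RefSeq places in the same host transcript, read 2.30 to 2.91 and differed by 0.21 ± 0.24. These values lay below 3.33, the lower quartile of the means of all probe sets, so they do not show that the locus was unchanged. The MIR21 and MIR221 calls against luciferase were lost without any of the 4 compared arrays (adjusted p 0.086 to 0.20), with differences of 1.75 to 1.99 and 1.43 to 2.02. They were called when either H3.Y array was left out. MIR222, VMP1, MIR15A and MIR16-1 were added after the values of their neighbours were seen.

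**Figure D4:**
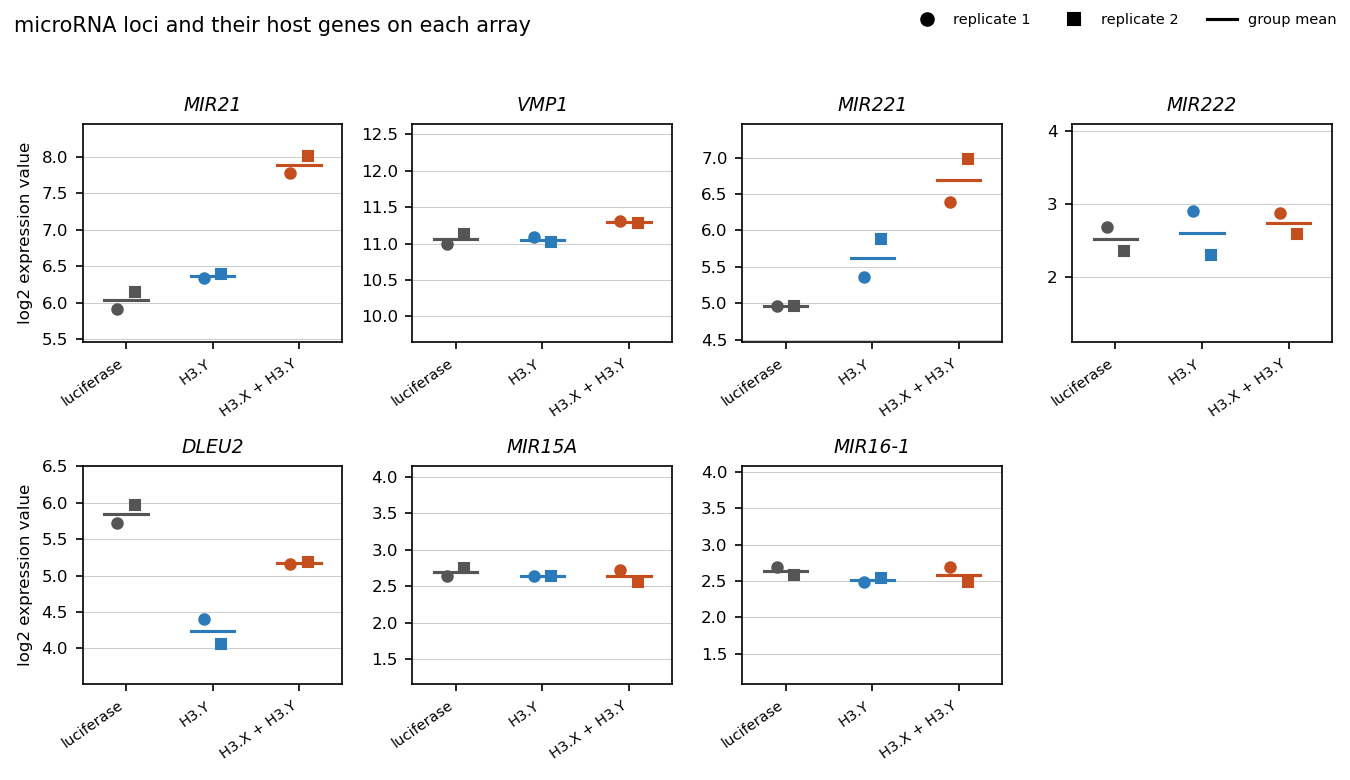
Log2 expression value (vertical axis, a span of 3 log2 units in every panel) of microRNA loci and host genes on the 6 arrays, by siRNA group (horizontal axis). Circles are replicate 1, squares replicate 2 and bars the group mean. MIR21 reads 7.78 and 8.01 in the combined knockdown while VMP1 around it stays between 10.99 and 11.31, and DLEU2 is lowest after H3.Y siRNA at 4.41 and 4.06.

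Genes known as targets of let-7, whose sequence is shown above, were measured for 9 of 12 listed. None passed in limma in any comparison. An unadjusted p under 0.05 was found for 2, 1 and 3 of the 9, beside 13.9%, 15.3% and 19% of all probe sets. For those with 1 gene symbol the shares were 17%, 19.1% and 24.4%. The list's median was log2 0.19 after H3.Y siRNA, -0.08 in the combined knockdown and -0.01 between them. The RNA-binding protein gene IGF2BP3 gave 0.77 ± 0.29 after H3.Y siRNA and -0.93 ± 0.29 between the knockdowns, and the phosphatase gene CDC25A gave -0.68 ± 0.12 after H3.Y siRNA (adjusted p = 0.31, 0.14 and 0.097). The 4 PIWI genes, which act with small RNAs of the germ line, had 0 at an unadjusted p under 0.05 in every comparison, and PIWIL4 at 0.39 ± 0.23 after H3.Y siRNA had the largest difference. Their group means, 2.74 to 3.27 log2 units, lay below 3.33, the lower quartile of the means of all probe sets.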

How the data were processed

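Total RNA of U2OS cells for the 6 arrays was labelled with biotin by the array maker's protocol, per the labels. Each probe set has a deposited log2 value from the authors' own processing, for which the submitters' processing notes name oligo, an array package. Version, background correction and summarisation were not stated in the sources used. The log base was inferred from the range of 0.687 to 14.0. Values were used as deposited, and 0 value columns were left unused. Equalised arrays hide a change that moves all transcripts alike.

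Probe sets were named from the platform's annotation, with symbols updated through Entrez IDs in the RefSeq gene table of GRCh38.p14. Of 33297 probe sets, 1754 had several symbols and 12083 were unnamed here, and neither kind was used for a gene. A gene of the pathway lists with several probe sets was read from the one with the highest mean. The 10 member probe sets had no duplicate on the array.

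The comparisons came from a single two-sided limma fit (version 3.58.1, R 4.3.3; lmFit, then eBayes) of 3 group means over the 6 arrays, with 3 residual and 3.43 prior degrees of freedom. Standard errors and 95% intervals are those of this fit, unadjusted for the number of genes. The script was tested on simulated data. As alternatives the fit was repeated with a replicate block, with only the 4 arrays compared, a further quantile normalization, median centring, a filter on dim probe sets, eBayes with trend and robust settings, and each array left out in turn. For microRNA genes and named pathway genes these were added after the values were seen.

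All 10 members were named. From each pathway list up to 4 called genes per comparison were taken, or up to 2 with the smallest p as values. Genes most like PRKRA were those with the highest Pearson r. The members and lists were chosen with earlier results of these data known.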

Additional observations from a re-analysis of the deposited data

How the results depend on the processing

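Few arrays limit every result: with 2 a group, calls turned on single arrays. In the order H3.Y siRNA against luciferase, combined knockdown against luciferase, and combined knockdown against H3.Y siRNA, limma called 93, 614 and 1554 probe sets, 0, 1 and 1 members and 1, 1 and 6 pathway genes. Leaving out 1 array at a time gave 0 to 629, 0 to 644 and 12 to 1641 probe sets, 0, 0 to 1 and 0 to 1 members, and 0 to 5, 0 to 2 and 0 to 7 pathway genes. The replicate block gave 68, 750 and 1778 probe sets, 0, 0 and 1 members and 0, 3 and 8 pathway genes. Deviations of same-numbered arrays correlated at 0.22, 0.28 and 0.12, but a comparison holds only 2 pairs and the labels do not say what a number marks, so the pairing is not established. With only the 4 arrays compared, 0, 644 and 448 probe sets, 0, 1 and 0 members and 0, 2 and 0 pathway genes were called. Dropping probe sets with a mean of 5 or less gave 541, 1389 and 2540 probe sets and 5, 7 and 12 pathway genes, with fewer tested. Trend and robust settings gave 209, 924 and 1901 probe sets and 2, 4 and 6 pathway genes, and the cause was not tested. Median centring gave 0 members and 2 pathway genes in the combined knockdown against luciferase, where PRKRA had an adjusted p of 0.0564.

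Each difference that changed sign under an alternative was one that had not been called. Quantile normalization turned XPO5 to 0.0264, PRKRA to 0.0326 and AGO1 to 0.0558 after H3.Y siRNA and DROSHA to -0.0107 between the knockdowns, and centring turned AGO1 to 0.0019. With 1 array left out, differences after H3.Y siRNA ran from -0.0602 to 0.1155 for DROSHA, -0.1428 to 0.0897 for XPO5, -0.1439 to 0.1259 for PRKRA, -0.2214 to 0.2191 for AGO1 and -0.208 to 0.3683 for AGO2. In the combined knockdown they ran from -0.0462 to 0.1165 for DROSHA, -0.019 to 0.0203 for AGO2 and -0.0694 to 0.1586 for AGO3. Between the knockdowns they ran from -0.0804 to 0.0954 for DROSHA, -0.2508 to 0.0523 for DGCR8, -0.0198 to 0.3723 for DICER1, -0.0153 to 0.0458 for TARBP2 and -0.3677 to 0.2086 for AGO2.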

Other observations

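Genes known as targets of miR-21 were listed after the MIR21 values were seen, and 6 of 8 were measured. PDCD4, an inhibitor of translation, differed by log2 -1.71 ± 0.16 in the combined knockdown against luciferase (adjusted p = 0.015, limma). In the same comparison SPRY2, an inhibitor of growth factor signalling, was higher by 1.44 ± 0.13 (adjusted p = 0.015, limma). TIMP3, an inhibitor of metalloproteinases, was higher by 2.19 ± 0.32 (adjusted p = 0.032, limma). The called targets thus lay on both sides, 2 higher and 1 lower, beside 0.859% and 0.985% of all probe sets. The alternative fits were not read for these targets. Of the 7 listed targets of miR-221 and miR-222 none was called, and CDKN1B, an inhibitor of cyclin-dependent kinases, gave 0.77 in the combined knockdown (adjusted p = 0.12).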
